A study of Mus musculus with 18 samples.

Results

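A set of 10 genes that mark liver endothelial cells, the cells that line the blood vessels of the liver, were followed in whole mouse liver with and without the histone demethylase JMJD1C in hepatocytes. The 10 were chosen by name from the 15572 genes of the RNA-seq count table, with earlier results of these data known, and all 10 were measured. Stab2, Lyve1, Clec4g and Fcgr2b mark the sinusoidal endothelium, and Pecam1, Cdh5, Kdr, Tek, Eng and Vwf mark endothelium in general.

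The study asked how JMJD1C, a Jumonji family enzyme that removes methyl groups from lysine 9 of histone H3, acts on the liver genome during fasting and feeding. RNA-seq was made from 2 libraries of pooled RNA from wild-type (WT) refed livers and 2 from JMJD1C-LKO refed livers. ATAC-seq, which finds open chromatin, was made from 2 single livers from each of 3 groups (fasted WT, refed WT and refed JMJD1C-LKO mice), and ChIP-seq for H3K9me2, a mark associated with silent chromatin, from 2 single livers each of WT fasted and WT refed mice. All mice were adult C57BL/6J, kept on chow for 6 to 8 weeks according to the labels. They were fasted overnight and, in the refed groups, given a high carbohydrate diet for 6 h according to the labels. The study's methods give a longer feeding time for its fasting and feeding experiments. JMJD1C-LKO mice carried floxed Jmjd1c alleles and a Cre transgene driven by the albumin promoter, which is active in hepatocytes, and the WT mice were their littermates without the deletion. The endothelial cells of JMJD1C-LKO livers were therefore not the cells in which Cre was directed to act. Every sample was whole liver, with no sorting of cells. Fasted and refed samples were told apart by the letters F and R in their titles, read with the study's own list of samples. The RNA-seq count columns were assigned to JMJD1C-LKO and WT by the letters J and W in their names, which the sample titles do not spell out.

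Liver sinusoidal endothelial cells form a thin, perforated lining without a continuous basement membrane, through which plasma reaches hepatocytes. They take up waste macromolecules through scavenger and Fc receptors, and they exchange signals with hepatocytes through the VEGF, angiopoietin and BMP pathways. The endothelium of larger vessels shares the junction proteins and growth factor receptors but holds few of the scavenger receptors and is rich in von Willebrand factor.

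The promoters of 6 of the 10 genes (Stab2, Clec4g, Fcgr2b, Kdr, Tek and Eng) were present among the RefSeq promoter sequences of GRCm38.p6, the assembly whose chromosomes are those of mm10. The 250 bases before the transcript start are shown for Stab2 and Clec4g, a pair of sinusoidal genes that were higher in JMJD1C-LKO liver, and for Kdr, a general gene for which no difference was called. Capitals mark the letters AGGAAG or CCGGAA on either strand, both cores bound by the ETS family of transcription factors, which regulate endothelial genes. Each sequence is written 5′ to 3′ on the strand of its gene and ends 1 base before the start.
Stab2, chr10:87007943-87008192, minus strand: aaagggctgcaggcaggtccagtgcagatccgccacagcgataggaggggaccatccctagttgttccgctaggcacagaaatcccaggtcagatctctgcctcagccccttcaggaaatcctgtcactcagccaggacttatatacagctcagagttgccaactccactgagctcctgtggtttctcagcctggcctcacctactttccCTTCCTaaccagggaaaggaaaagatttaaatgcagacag
Clec4g, chr8:3720652-3720901, minus strand: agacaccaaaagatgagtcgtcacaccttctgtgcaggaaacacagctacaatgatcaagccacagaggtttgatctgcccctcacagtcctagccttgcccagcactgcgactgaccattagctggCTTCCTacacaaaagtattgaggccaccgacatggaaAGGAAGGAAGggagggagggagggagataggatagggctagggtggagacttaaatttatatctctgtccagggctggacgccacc
Kdr, chr5:75978456-75978705, minus strand: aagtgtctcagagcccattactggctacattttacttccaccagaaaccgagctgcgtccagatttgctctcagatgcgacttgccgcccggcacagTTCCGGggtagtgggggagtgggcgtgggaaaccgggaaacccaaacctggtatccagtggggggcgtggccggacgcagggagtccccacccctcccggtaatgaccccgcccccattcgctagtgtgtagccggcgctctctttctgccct

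AGGAAG lay in 3 of the 6 promoters (Stab2, Clec4g and Eng) and in 29.5% of all 32851 RefSeq promoters cut to the same length. It occurred once in Stab2, 3 times in Clec4g, where 2 of the matches overlap, and 2 times in Eng. CCGGAA lay in 1 of the 6, Kdr, and in 12.0% of all promoters. The core ACAAT of SOX factors lay in Clec4g, Fcgr2b and Tek and in 27.7% of all promoters. TATAAA lay in Clec4g and in 12.4% of all. The GATA motif AGATAA and the E-box CACGTG lay in none of the 6, against 9.99% and 6.02% of all promoters. The G and C content of the 6 windows ran from 45.2% in Fcgr2b to 62.4% in Eng, with 52.4% the median over all promoters. Kdr had the highest ratio of observed to expected CpG, 0.676, beside a median of 0.373. These matches describe letters only.

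H3K9me2 summits, the highest points of called regions, fell near the start of 3 of the genes, Fcgr2b, Kdr and Eng, each in the same WT fasted liver. The 50 bases on either side of these summits are printed with CpG in capitals, on the strand of the gene. The last sequence is the surrounding of an H3K9me2 summit deep in an intron of Stab2, shown because it repeats itself and drew summits in both assays.
Fcgr2b, chr1:170975816-170975916, minus strand: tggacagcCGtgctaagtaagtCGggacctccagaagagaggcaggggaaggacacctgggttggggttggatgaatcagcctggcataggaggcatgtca
Kdr, chr5:75978061-75978161, minus strand: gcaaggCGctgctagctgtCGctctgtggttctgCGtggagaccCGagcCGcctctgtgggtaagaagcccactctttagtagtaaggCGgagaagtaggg
Eng, chr2:32647015-32647115, plus strand: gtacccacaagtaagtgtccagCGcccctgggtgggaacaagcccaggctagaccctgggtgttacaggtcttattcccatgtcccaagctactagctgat
Stab2 intron, chr10:86845516-86845616, minus strand: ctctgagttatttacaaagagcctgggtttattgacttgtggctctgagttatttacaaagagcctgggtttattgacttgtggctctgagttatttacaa

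The 4 RNA-seq libraries held between 51265100 and 54400500 estimated counts each. Jmjd1c, the targeted gene, stood at 22.0 and 22.8 CPM (counts scaled to library size by TMM factors, the usual counts-per-million unit) in WT and 20.0 and 20.5 in JMJD1C-LKO, a log2 fold change of -0.14 ± 0.08 (SE) with an adjusted p of 0.233 in edgeR's quasi-likelihood test. The table gives no separate count of the deleted part of Jmjd1c, so these values could not check the labels. Of 14151 genes tested, 2066 (14.6%) were higher and 1892 (13.4%) lower in JMJD1C-LKO at an adjusted p under 0.05, and the median log2 fold change was 0.0061. The number of livers in each pool is not given in the sources used here, so p-values measure the spread between 2 pooled libraries in each group. In the peak assays, JMJD1C-LKO liver 2 had 825 ATAC-seq summits where the other 5 livers had 1450 to 7632, and WT refed liver 1 had 1297 H3K9me2 summits where the other 3 had 7690 to 13456.

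Of the 10 endothelial genes, 5 were higher in JMJD1C-LKO than in WT liver (Stab2, Lyve1, Clec4g, Pecam1 and Cdh5), against 14.6% of all genes tested, and none was lower in edgeR's quasi-likelihood test. Because the 10 were chosen with earlier results of these data known, comparisons of their shares with all genes are not independent of the data. At an unadjusted p under 0.05, 7 were higher and 0 lower, against 20.5% and 19.5% of all genes, and DESeq2 called 5 higher and 0 lower, against 11.0% and 10.1% of all genes. The 5 differences ran from 1.38-fold for Clec4g to 1.91-fold for Pecam1. They included 3 of the 4 sinusoidal and 2 of the 6 general genes. The fitted log2 fold change was above 0 for 10 of 10 (50.6% of all genes) and the median over the 10 was 0.51. In 8 of 10, both JMJD1C-LKO libraries stood above both WT libraries, which held for 33.7% of all genes, and 33.8% of all genes were the other way round. All 10 were highest in JMJD1C-LKO library 2, as were 33.1% of all genes. In whole liver, more cells of a type and more RNA in each cell cannot be told apart. The number of members called rested on single libraries, and the number of all genes called higher moved too. The median log2 fold change of the 10 was 0.36 without WT library 2. It was 0.68 without JMJD1C-LKO library 1 and 0.31 without JMJD1C-LKO library 2. With each gene represented by its most abundant transcript, 3 members were called higher, as were 1263 of the 14050 genes tested.

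**Figure D1:**
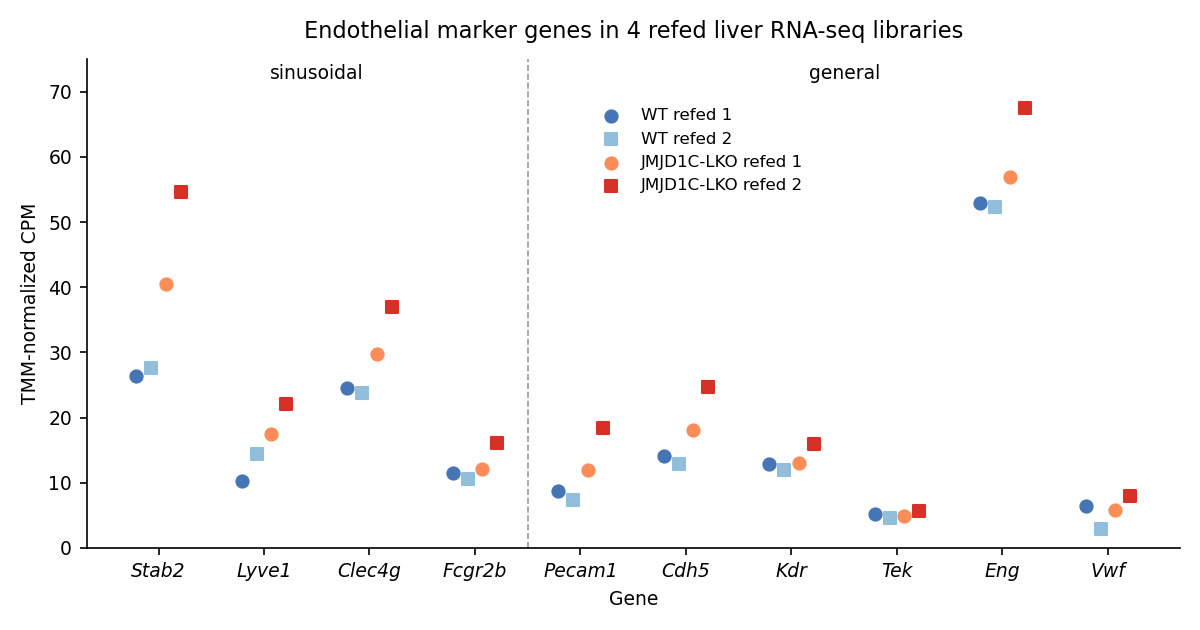
TMM-normalized CPM (y axis, linear) of the 10 endothelial genes (x axis) in the 2 WT refed and 2 JMJD1C-LKO refed RNA-seq libraries, 1 point per library. In all 10 genes the red square, JMJD1C-LKO library 2, is the highest point, and in Tek and Vwf the groups overlap.

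Stab2, stabilin-2, is a scavenger receptor that clears hyaluronan from blood. It stood at 26.4 and 27.6 CPM in the WT libraries and at 40.5 and 54.6 CPM in the JMJD1C-LKO libraries. The groups did not overlap, and the JMJD1C-LKO libraries differed from each other by more than the WT libraries did. The log2 fold change was 0.82 ± 0.13 (SE), with an adjusted p of 0.00188 in edgeR's quasi-likelihood test. It passed the threshold under all 10 alternative settings of the RNA-seq analysis, at log2 fold changes from 0.58 to 1.01.

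Lyve1, a hyaluronan receptor of sinusoidal and lymphatic endothelium that some macrophages also carry, stood at 10.3 and 14.4 CPM in WT and at 17.5 and 22.0 in JMJD1C-LKO. All 4 values were spread, but the groups did not overlap. Its log2 fold change was 0.68 ± 0.16 (SE), with an adjusted p of 0.0129 in edgeR's quasi-likelihood test. The call was lost without WT library 1 (log2 fold change 0.46) and without JMJD1C-LKO library 2 (0.50). With the most abundant transcript of each gene, the adjusted p in the same test was 0.052 at a log2 fold change of 0.68. All counts of Lyve1 belong to 1 transcript, so its own counts did not change in that setting.

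Clec4g encodes LSECtin, a C-type lectin of the sinusoidal lining. Its 2 WT libraries were close, at 24.5 and 23.7 CPM, and the JMJD1C-LKO libraries were at 29.8 and 36.9. The log2 fold change was 0.47 ± 0.11 (SE), with an adjusted p of 0.0113 in edgeR's quasi-likelihood test. Without either WT library the call was lost, at adjusted p 0.0823 and 0.119, while the log2 fold change stayed at 0.49 and 0.44.

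Fcgr2b, the inhibitory Fc gamma receptor by which sinusoidal cells take up immune complexes, stood at 11.5 and 10.6 CPM in WT and at 12.1 and 16.1 in JMJD1C-LKO. The lower JMJD1C-LKO value lay just above the higher WT value. The log2 fold change of 0.35 ± 0.14 (SE) had an adjusted p of 0.0903 in edgeR's quasi-likelihood test, and 0.00412 without JMJD1C-LKO library 1. Macrophages and B cells also carry this receptor, and its sequence is close to that of other Fc receptor genes, so its counts are uncertain. It has 2 RefSeq transcripts, and the longer, with 8 exons and 141 more bases, took 8.36% and 16.7% of its counts in WT and 15.0% and 24.9% in JMJD1C-LKO. These shares overlap between the groups.

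Pecam1, a junction protein found on endothelium, platelets and leukocytes, had the highest fold of the 10. It stood at 8.66 and 7.27 CPM in WT and at 12.0 and 18.3 in JMJD1C-LKO, without overlap. The log2 fold change was 0.93 ± 0.19 (SE), with an adjusted p of 0.00627 in edgeR's quasi-likelihood test. Without WT library 2 the adjusted p was 0.0833. The counts were split over 4 RefSeq transcripts, and the share given to the one highest on average ran from 25.7% to 67.6% over the 2 WT libraries alone. With that single transcript in place of the sum, the log2 fold change was 1.09 and the adjusted p 0.192.

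Cdh5 encodes VE-cadherin, the adhesion protein of endothelial junctions. Its values were 14.1 and 12.9 CPM in WT and 18.1 and 24.7 in JMJD1C-LKO. The groups stood apart, and the log2 fold change was 0.67 ± 0.14 (SE), with an adjusted p of 0.00783 in edgeR's quasi-likelihood test. The call was lost in 1 of 10 alternatives, without WT library 2 (adjusted p 0.0965).

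The receptors for vessel growth factors showed small differences that did not pass the test. Kdr, VEGF receptor 2, stood at 12.9 and 12.0 CPM in WT and at 13.0 and 15.9 in JMJD1C-LKO, a log2 fold change of 0.21 with a 95% interval from -0.06 to 0.48. Tek, the angiopoietin receptor Tie2, was the least different, at 5.23 and 4.56 CPM in WT and 4.82 and 5.66 in JMJD1C-LKO. Its log2 fold change was 0.10, with an interval from -0.27 to 0.47, and it turned to -0.02 without JMJD1C-LKO library 2 and to -0.00024 without WT library 2. Eng, endoglin, a co-receptor for BMP9, was the most abundant of the 10 by CPM, at 53.0 and 52.2 in WT and 56.9 and 67.5 in JMJD1C-LKO. Its log2 fold change of 0.24 had an interval from 0.03 to 0.45 and an adjusted p of 0.0839 in edgeR's quasi-likelihood test, which became 0.0404 with upper quartile scaling and 0.0052 without JMJD1C-LKO library 1. Without that library Kdr also passed, at an adjusted p of 0.0317.

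Vwf encodes von Willebrand factor, the platelet-binding protein made by large-vessel endothelium and megakaryocytes. It stood at 6.48 and 2.89 CPM in WT and at 5.87 and 7.93 in JMJD1C-LKO. The WT libraries differed from each other by more than the JMJD1C-LKO libraries did, and the groups overlapped. The log2 fold change of 0.56 had a 95% interval from -0.13 to 1.25 and an adjusted p of 0.205 in edgeR's quasi-likelihood test. Without WT library 1 it was 1.25, with an adjusted p of 0.0256.

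Stab2, Cdh5 and Eng overlap other genes on the genome. Stab2 (chr10:86841210-87007942, minus strand) overlaps Gm16271, Cdh5 (chr8:104101625-104144502, plus strand) overlaps Gm29682 and Eng (chr2:32646595-32682669, plus strand) overlaps Fpgs, each of these on the opposite strand, and Eng also holds Mir1954. Whether the authors counted by strand is not given in the sources used here, so reads of these pairs may not have been told apart.

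Levels of different genes were compared as CPM per kilobase of transcript. In WT the order from high to low was Clec4g at 19.5, Eng at 15.2, Fcgr2b at 7.77, Lyve1 at 4.73, Cdh5 at 3.39, Stab2 at 3.32, Pecam1 at 2.52, Kdr at 2.10, Tek at 1.06 and Vwf at 0.531. Of the neighbours in this order, Cdh5 and Stab2 overlapped in their libraries. In JMJD1C-LKO the order was Clec4g at 27.0, Eng at 18.0, Fcgr2b at 9.83, Lyve1 at 7.57, Stab2 at 5.85, Cdh5 at 5.37, Pecam1 at 4.82, Kdr at 2.43, Tek at 1.14 and Vwf at 0.781. There each neighbour from Lyve1 to Pecam1 overlapped with the next. The defining receptors of the sinusoid, with Clec4g at the top, were thus measured in all 4 libraries.

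The sinusoidal and general genes were then summed separately. The 4 sinusoidal genes together stood at 72.8 and 76.3 CPM in WT and at 99.9 and 129.6 in JMJD1C-LKO. The 6 general genes stood at 100.4 and 91.9 CPM in WT and at 110.6 and 140.0 in JMJD1C-LKO. Both sums were higher in both JMJD1C-LKO libraries. The ratio of the sinusoidal to the general sum was 0.725 and 0.830 in WT (0.778 ± 0.0744, SD, n = 2) and 0.903 and 0.926 in JMJD1C-LKO (0.915 ± 0.0161, SD, n = 2). With 2 against 2 libraries an exact permutation test cannot give a p below 0.333, so the ratio was not tested. The ratio leaned on Eng, the most abundant of the general genes. Without Eng it was 1.54 and 1.93 in WT and 1.86 and 1.79 in JMJD1C-LKO, and the groups overlapped. Without Stab2 it was 0.462 and 0.530 in WT and 0.537 and 0.536 in JMJD1C-LKO, so that WT library 2 nearly met the JMJD1C-LKO libraries. With any other single gene left out, both JMJD1C-LKO libraries stood above both WT libraries. The median log2 fold change was 0.57 over the 4 sinusoidal genes, from 0.35 to 0.82, and 0.40 over the 6 general genes, from 0.10 to 0.93, and these ranges overlap.

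Other endothelial genes, from lists that hold none of the 10, were read from the same fit. All marker lists were likewise chosen with earlier results of these data known. Of 13 further sinusoidal genes, 7 were higher (14.6% of all genes) and 1 lower (13.4%), and their median log2 fold change was 0.50. The mannose receptor Mrc1 stood at 22.2 and 20.7 CPM in WT and 31.8 and 46.6 in JMJD1C-LKO (log2 fold change 0.87). Oit3, a liver sinusoidal marker, stood at 10.8 and 11.6 in WT and 17.1 and 26.7 in JMJD1C-LKO (0.97). The transcription factor Maf rose by 0.53 and Ehd3, an endocytic protein and the most abundant of the list, by 0.57 on the log2 scale. Mrc1 and Maf are also expressed by macrophages. The one gene called lower was Gata4, a transcription factor that directs sinusoidal identity in the liver. Gata4 stood at 18.6 and 18.3 CPM in WT and 13.4 and 11.9 in JMJD1C-LKO. Its log2 fold change was -0.55 ± 0.10 (SE), with an adjusted p of 0.00415 in edgeR's quasi-likelihood test. In whole liver, the cells in which Gata4 fell cannot be told from these counts.

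Of 25 further genes of general and large-vessel endothelium, 5 were higher and 0 lower in edgeR's quasi-likelihood test. Over all genes 14.6% were higher and 13.4% lower. The median log2 fold change of the 25 was 0.26. At an unadjusted p under 0.05 in edgeR, 9 of the 25 (36%) were higher and 0 lower, against 20.5% and 19.5% of all genes. DESeq2 called 5 (20%) higher and 0 lower, against 11.0% and 10.1% of all genes. Gja4, a connexin of arterial endothelium, had the highest value, at 4.13 and 3.59 CPM in WT and 6.94 and 9.91 in JMJD1C-LKO (log2 fold change 1.13). Esam, a junction protein (0.60), Robo4, an endothelial guidance receptor (0.48), and Plvap, the protein of the diaphragms that span endothelial openings (0.31), also rose. Ptprb, an endothelial phosphatase and the most abundant of the list, stood at 57.8 and 54.3 CPM in WT and 50.8 and 59.5 in JMJD1C-LKO, with a log2 fold change of -0.02 ± 0.09 (SE) and an adjusted p of 0.884 in edgeR's quasi-likelihood test.

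**Figure D2:**
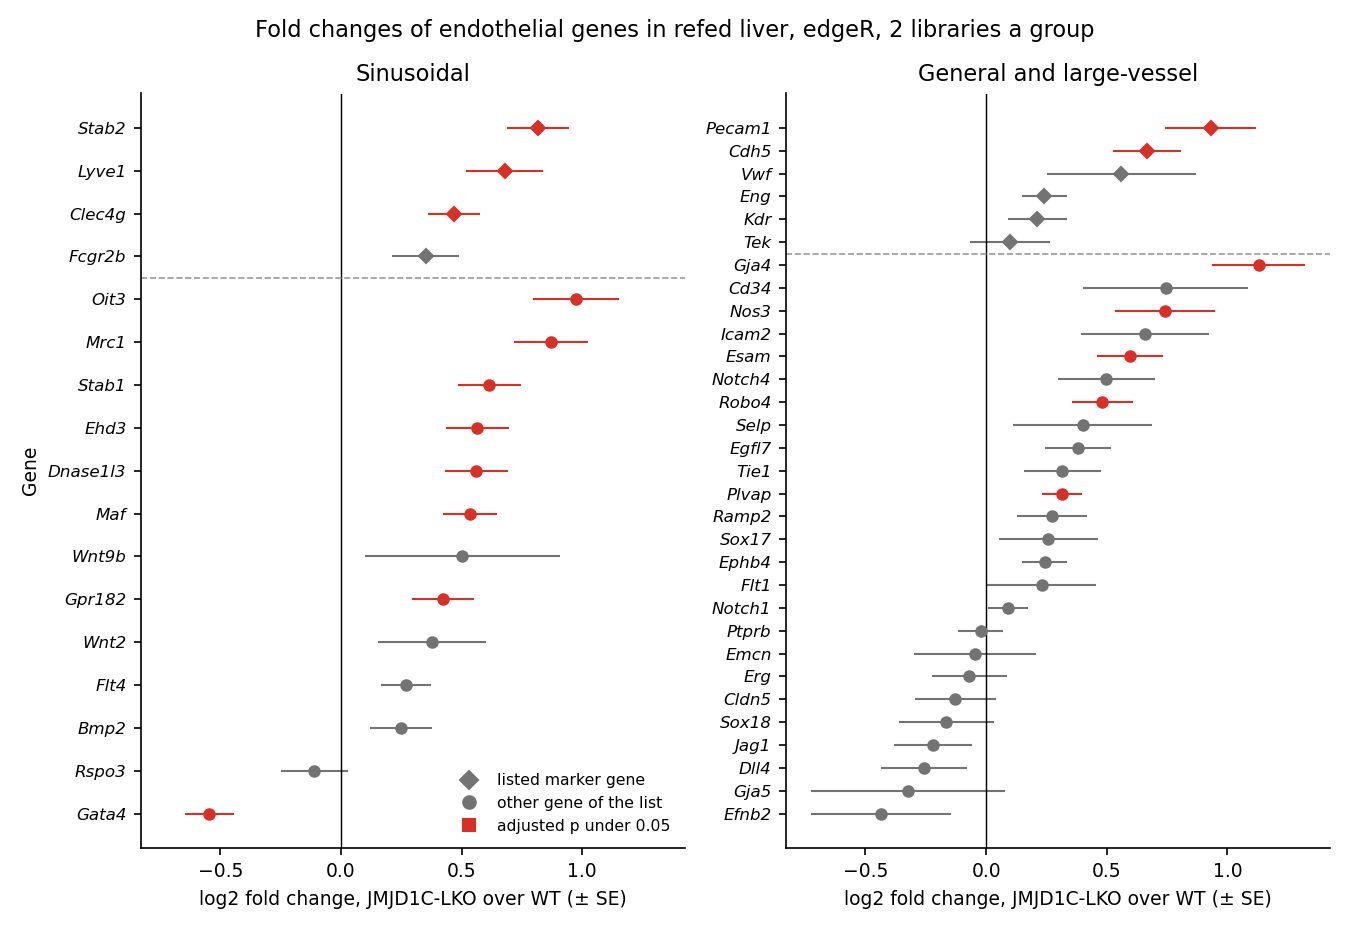
log2 fold change of JMJD1C-LKO over WT ± SE (x axis, linear) for sinusoidal genes (left) and general and large-vessel endothelial genes (right), from edgeR with 2 libraries in each group. Diamonds above the dashed lines are the 10 genes, circles the other genes of the lists, and red marks an adjusted p under 0.05. All 10 diamonds lie above 0, and Gata4 is the only red point below it.

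Among these 38 other endothelial genes, the profile most like the mean of the 10 over the 4 libraries was that of Dnase1l3, a secreted nuclease, followed by Ehd3 and Notch4. Their Euclidean distances from the mean, in log2 CPM centred on each gene, were 0.0566, 0.0671 and 0.0776. The mean of the 10 stood at -0.18 and -0.32 in WT and 0.06 and 0.44 in JMJD1C-LKO on this scale.

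A further list held VEGF, angiopoietin and BMP9 pathway genes other than the 10, which were ligands, other receptors and downstream genes. Of the 21 tested, 2 were higher and 4 lower, with a median log2 fold change of 0.04, and DESeq2 called 1 and 3. These counts are near what 14.6% higher and 13.4% lower over all genes would give for 21. The ligand Vegfa, which signals through Kdr and is made largely outside the endothelium, stood at 272 and 261 CPM in WT and at 207 and 226 in JMJD1C-LKO (log2 fold change -0.30). Vegfb, a ligand of VEGF receptor 1, stood at 15.6 and 16.4 in WT and 8.99 and 9.65 in JMJD1C-LKO, a fall of 0.78 ± 0.11 (SE) on the log2 scale with an adjusted p of 0.000951 in edgeR's quasi-likelihood test. The co-receptor Nrp1 was lower too, with a log2 fold change of -0.39. Gdf2, which encodes BMP9, the ligand bound by endoglin, was higher, at 15.5 and 18.1 CPM in WT and 20.5 and 25.5 in JMJD1C-LKO (log2 fold change 0.45). The related ligand Bmp10 was called higher (1.69) from levels under 1 CPM in every library.

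Markers of other cell types moved with the 10 genes. All 11 Kupffer cell and macrophage markers were higher in JMJD1C-LKO by edgeR, against 14.6% of all genes, with a median log2 fold change of 1.34. Their summed level was 1.94 and 2.78 times the WT mean in the 2 JMJD1C-LKO libraries, where the sinusoidal genes reached 1.34 and 1.74 times and the general genes 1.15 and 1.46 times. Adgre1, which encodes F4/80, stood at 3.14 and 4.06 CPM in WT and 12.6 and 21.7 in JMJD1C-LKO, and Clec4f, a Kupffer cell lectin, at 83.8 and 84.4 in WT and 139.7 and 190.6 in JMJD1C-LKO. Marco (1.46), Cd5l (1.46) and C1qb (1.21) rose on the log2 scale as well. JMJD1C-LKO library 2 was the highest for the macrophage list and for both groups of endothelial genes. The part of these cells in the endothelial values was not tested.

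Of 10 lymphocyte and leukocyte markers 4 were higher and 0 lower by edgeR, against 14.6% and 13.4% of all genes. At an unadjusted p under 0.05 in edgeR, 9 were higher and 0 lower, against 20.5% and 19.5% of all genes. DESeq2 called 3 and 0, against 11.0% and 10.1%. The 4 were Ptprc, the pan-leukocyte CD45 (log2 fold change 1.07), Nkg7 (1.47), Cd3e (1.31) and Cd4 (1.14). The summed level was 1.81 and 2.34 times the WT mean. Of 4 platelet and megakaryocyte genes tested 2 were higher by edgeR, Gp1ba (0.86) and Ppbp (1.42), against 14.6% of all genes. The platelet sum was 1.43 and 1.66 times the WT mean, with all these genes at under 4 CPM, and DESeq2 called 0 of the 4. Platelets carry Pecam1 and Vwf, and their part in these values was not tested. Of 11 stellate cell markers 2 were higher by edgeR, Col1a1 (0.59) and Col3a1 (0.49), near the 14.6% of all genes. DESeq2 also called 2 higher. At an unadjusted p under 0.05 in edgeR, 5 of the 11 were higher and 1 lower, against 20.5% and 19.5% of all genes. The stellate sums were 1.03 and 1.23 times the WT mean. Of 5 red blood cell genes 1 was higher by edgeR, Alas2 (0.59), also near the 14.6% of all genes. The red blood cell sum was uneven within WT, at 1.29 and 0.714 times the mean.

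Hepatocyte and bile duct genes did not follow this pattern in their summed levels. None of 9 hepatocyte and none of 5 bile duct markers was called in either direction by edgeR's quasi-likelihood test, with 1 of each list at an unadjusted p under 0.05 and 0 of either called by DESeq2. The hepatocyte sum was 1.01 and 0.895 times the WT mean in JMJD1C-LKO, and the bile duct sum 0.914 and 1.02 times. Alb made up most of the hepatocyte sum, at 86053 of 127058 CPM in WT library 1. Of the 9 hepatocyte genes, 5 had a log2 fold change above 0, against 50.6% of all genes. Of 5 lymphatic endothelial genes 2 were lower by edgeR, against 13.4% of all genes. They were Prox1 (log2 fold change -0.60), which hepatocytes also express, and Pdpn (-1.63), which stood under 1 CPM. DESeq2 called 1 lower. At an unadjusted p under 0.05 in edgeR, 2 of the 5 were higher and 2 lower, against 20.5% and 19.5% of all genes. Lyve1, a lymphatic marker as well, was higher as given above. Of 5 sex-linked genes 1 was lower by edgeR, Kdm5d (-0.63), against 13.4% of all genes.

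**Figure D3:**
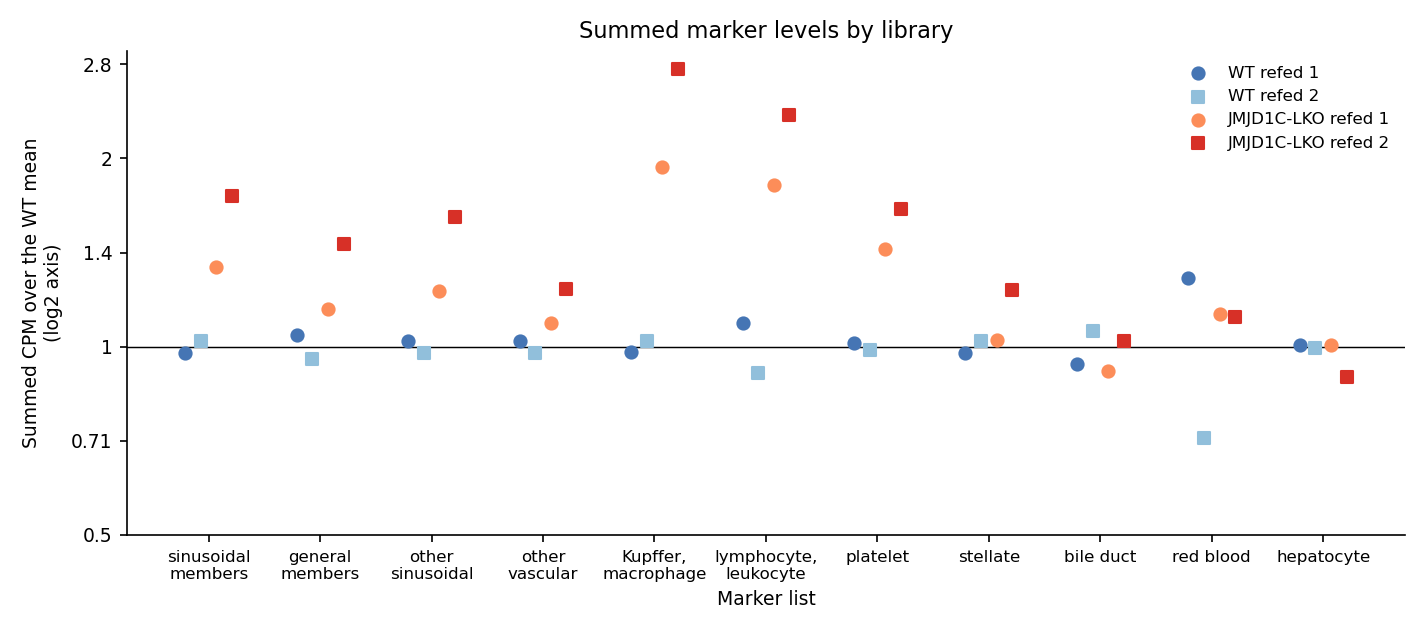
Summed CPM of each marker list divided by its WT mean (y axis, log2 scale) in the 4 RNA-seq libraries, 1 point per library, with the line at 1 marking the WT mean. Both JMJD1C-LKO libraries lie above both WT libraries for the endothelial, macrophage, lymphocyte and platelet lists. The same holds narrowly for the stellate list (1.026 in JMJD1C-LKO library 1, 1.022 in WT library 2). The macrophage list reaches 2.78 in JMJD1C-LKO library 2.

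Chromatin at the 10 genes was read from the summits within 1000 bp of a RefSeq transcript start on mm10. Summits have no width or depth here, no test was run on the 2 livers of a group, for which an exact permutation test of 2 against 2 cannot go below a p of 0.333, and a missing summit says only that no region was called. In ATAC-seq none of the 10 genes had a summit at its start in any of the 6 livers. The share of all 26180 annotated genes with one was 12.0% and 5.49% in WT fasted livers, 9.94% and 6.24% after refeeding of WT mice and 4.06% and 0.886% in JMJD1C-LKO. Among the 13825 annotated genes tested in the RNA-seq these shares were 20.2%, 9.28%, 16.7%, 10.5%, 6.66% and 1.31%. Of the markers of other cell types, 0 of 11 for Kupffer cells and 0 of 10 for lymphocytes had one in any liver. Of the 9 hepatocyte markers, 3 and 1 had one in the WT fasted livers, no WT refed liver did, and the JMJD1C-LKO livers had 1 and 0.

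In H3K9me2 ChIP-seq, 0 and 3 of the 10 genes had a summit at the start in the 2 WT fasted livers and 0 in both WT refed livers. The shares of all annotated genes were 29.3% and 42.7% on fasting, against 0.233% and 35.1% on refeeding. Among genes tested in the RNA-seq they were 51.6% and 74.1%, and 0.123% and 61.6%. No gene of the 10 had a summit in both livers of a group, which 29.1% of all genes had on fasting and 0.042% on refeeding. Leaving out WT fasted liver 1 gave 3 genes and leaving out liver 2 gave 0.

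The 3 summits of WT fasted liver 2 lay inside the genes, as in the sequences printed above. That of Fcgr2b was 205 bp after the start, in an intron, with a score (the −log10 of the q-value) of 2.961. That of Kdr was 344 bp after the start, in a coding exon, with 5.193, and that of Eng 470 bp after it, in an intron, with 6.322. They were weak calls for this liver, ranking 13312, 12560 and 12158 of 13456, so that 98.9%, 93.3% and 90.3% of its summits ranked above them. The Kdr window holds 6 CpG, that of Fcgr2b 2 and that of Eng 1.

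The marker lists of other cell types were read in the same way, without a test. Of 9 hepatocyte markers, 9 and 8 had an H3K9me2 summit on fasting and 0 and 7 on refeeding, including albumin (Alb) in both fasted livers. Kupffer markers had 0 of 11 in all 4 livers, as lymphocyte, platelet and red blood cell genes had none. Of the 13 other sinusoidal genes 1 and 6 had a summit on fasting and 0 and 2 on refeeding, Gata4 in 3 of the 4 livers. Of 26 other vascular genes there were 2 and 10, then 0 and 3, and of 23 pathway genes 9 and 13, then 0 and 8, Vegfa among them in 3 of the 4. Stellate markers had 1 of 11 in WT fasted liver 2 and 0 in the other 3 livers.

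**Figure D4:**
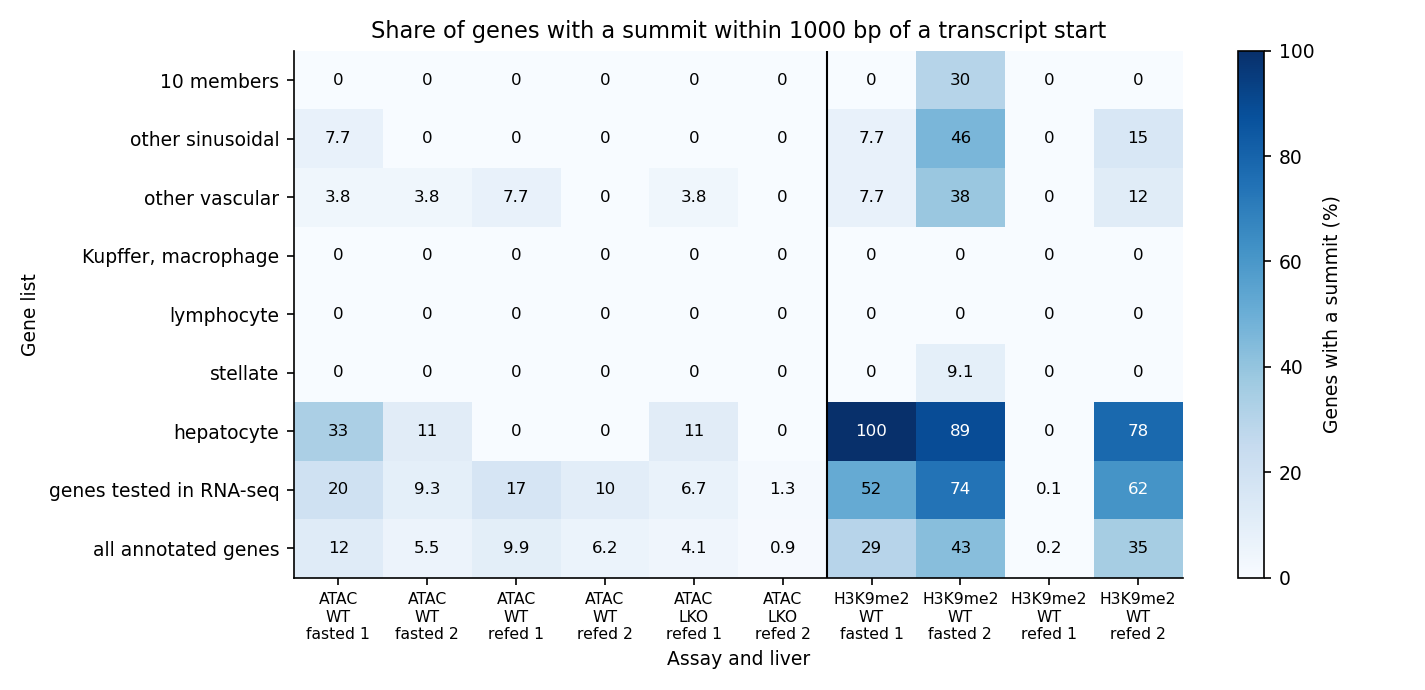
Percent of genes with a summit within 1000 bp of a transcript start (colour and number) for each gene list (rows) in the 6 ATAC-seq and 4 H3K9me2 ChIP-seq livers (columns). The row of the 10 endothelial genes holds 0 in 9 of 10 columns and 30 in H3K9me2 WT fasted liver 2, where all annotated genes reach 42.7.

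Away from the starts, few summits fell in or within 10000 bp of the 10 genes. In Stab2, 3 lay within 138 bp of each other in the intron whose sequence is given above, about 162 kb after its start, in ATAC-seq of WT fasted liver 2 (position 86845615), in ATAC-seq of JMJD1C-LKO liver 2 (86845477) and in H3K9me2 of WT refed liver 1 (86845566). The sequence there repeats itself exactly every 42 bases, and the genome's repeat masking covers 0% of it. A further Stab2 summit (86993898, ATAC-seq, WT fasted liver 2), 1 in Tek 31118 bp after the start (94770407, WT refed liver 1) and 1 at 5988 bp before Clec4g (WT fasted liver 2) lay in sequence that was 100% masked as repeat. Upstream of Cdh5 an ATAC-seq summit lay 9976 bp before the start in WT fasted liver 1 (104091649). Just past the 10000 bp limit, another lay 10130 bp before the start in WT refed liver 1 (104091495). Downstream of Lyve1, 3 summits lay 133, 195 and 483 bp from the start of the next gene, Rnf141. For Pecam1 and Vwf the closest summits to the start, over all 10 livers, lay 62455 and 58321 bp away.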

How the data were processed

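RNA-seq (4 libraries), ATAC-seq (6 livers) and H3K9me2 ChIP-seq (4 livers) were used. For RNA-seq the authors deposited unscaled estimated counts of RefSeq transcripts. For the peak assays they deposited MACS2 summits, called sample by sample, each scored by the authors as the −log10 of its q-value. Reads were aligned to mm10; the submitters' processing notes name BWA, HISAT2, MACS2 2.1.1 and Partek with no roles, and the methods give q-values under 0.05 and, for ChIP-seq, 2.5-fold enrichment over input. The counting method is not given in the sources used here. The authors' own comparison table (p-values and fold changes) was not used, and 0 columns of samples were left unmapped. The input libraries were not analysed here.

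Counts were summed per gene (15572 genes), rounded and tested with edgeR 4.0.16 (TMM, filterByExpr, quasi-likelihood F test, Benjamini-Hochberg over 14151 genes). On data simulated for this comparison (14130 genes tested), 35% of genes changed by 0.5 and 99% of genes changed by 1 on the log2 scale were recovered. The simulation gave every gene the same dispersion in both groups and changed only genes with high counts. These shares therefore need not hold for the real libraries. DESeq2 1.42.0, other scaling, no filter, the replicate block, single transcripts and leaving out each library were alternatives. Replicates differed by more than sampling noise in both groups. Libraries held 51265100 to 54400500 counts; summit lists carry no depth. Summits were matched to starts of 26180 RefSeq genes (GRCm38.p6) within 1000 bp. The 4 sinusoidal and 6 general genes and all marker lists were chosen with earlier results of these data known; some lists share genes. Beside the 10, each list names at most the 4 genes with the smallest p past the threshold and its most abundant one, and the text names the 3 genes closest in profile; other genes named at H3K9me2 or ATAC summits were chosen after their values were seen.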

Additional observations from a re-analysis of the deposited data

How the results depend on the processing

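Stab2 passed the threshold under all 10 RNA-seq alternatives and was higher in JMJD1C-LKO in each. Tek was reversed without WT replicate 2 (-0.000243) and without JMJD1C-LKO replicate 2 (-0.023), in both cases at values near 0, and reached 0.20 without JMJD1C-LKO replicate 1. Leaving out 1 library at a time moved the members called from 2 (without WT replicate 2) to 8 (without JMJD1C-LKO replicate 1), the genes called higher from 660 (without WT replicate 2) to 2590 (without JMJD1C-LKO replicate 1), with 789 without WT replicate 1, and those called lower from 408 (without WT replicate 2) to 2590 (without JMJD1C-LKO replicate 1), with 476 without WT replicate 1. With the most abundant transcript of each gene, 3 members, 1263 higher and 1063 lower genes were called. DESeq2 called 5 members, 1720 higher and 1572 lower genes. The replicate numbers did not pair the libraries (correlation of deviations -0.0046), and the fit with the replicate block called 6 members, Vwf joining with a log2 fold change of 0.63 and an adjusted p of 0.0455, 2211 higher and 1996 lower genes. The ratio of sinusoidal to general sums was 1.43 in WT and 1.54 in JMJD1C-LKO per kilobase, 0.496 and 0.536 without Stab2, and 0.816 and 0.968 without Vwf. Leaving out each other gene was added after seeing the data. In WT and JMJD1C-LKO the ratio was then 1.73 and 1.82 without Eng, where the libraries overlapped. It was 0.648 and 0.757 without Lyve1, 0.526 and 0.648 without Clec4g, and 0.663 and 0.802 without Fcgr2b. Among the general genes it was 0.905 and 1.10 without Cdh5 and 0.894 and 1.03 without Kdr. It was 0.848 and 1.04 without Pecam1 and 0.819 and 0.955 without Tek. The 3 members with an H3K9me2 summit in WT fasted livers appear when either liver suffices or liver 1 is left out, and 0 when both must hold it. Where a library was left out, its lone partner was assumed to vary like the libraries of the other group. The cause of these shifts was not tested, beyond the smaller number of samples where a library is left out. With 2 libraries in each group, changes of 0.5 on the log2 scale were often missed in the simulated data, whose spread was simpler than that of the real libraries. The summit lists cannot tell a closed promoter from one that was not sequenced deeply enough.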
